A study of Mus musculus with 12 samples.

Results

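Public CDR3s are antigen-binding loops of the antibody heavy chain that recur, residue for residue, in different animals. They were selected on their presence in the libraries of splenic B cells from 12 mice: a CDR3 was called public when it was found in 4 or more of 6 libraries of control SMO-treated mice and in 4 or more of 6 libraries of LFPRLR SMO-treated mice. Of 216337 distinct CDR3s, 513 (0.237%) met this rule, and 176819 (81.7%) were found in 1 library only and served as the comparison. All mice were female MRL-lpr mice, an SLE-prone strain homozygous for Fas lpr, a mutation that disables the death receptor Fas, and were 14 weeks old at analysis. An SMO is a splice-modulating morpholino oligomer, and the LFPRLR SMO keeps exon 10 of Prlr out of the transcript and so lowers the long isoform of the prolactin receptor. Control SMO-treated mice received a control oligomer by the same subcutaneous minipumps. Heavy chain transcripts were amplified from J558, a large VH family, to the IgM constant region Cμ, so other VH families and switched isotypes are outside these data. The mice carry no engineered receptor, and magnetic sorting for B cells preceded amplification.

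A heavy chain CDR3 arises when one V, one D and one J segment of the immunoglobulin heavy chain locus on chromosome 12 are joined in a developing B cell. Nucleotides are trimmed from the segment ends and untemplated nucleotides (N regions) are added between them, which makes most junctions rare. Junctions that keep to germline sequence, or that several nucleotide sequences can encode, are textbook examples of CDR3s that can form repeatedly in unrelated animals. The lengths below exclude the conserved cysteine of V and the conserved tryptophan of J that flank the loop.

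Depth and overlap of the libraries bear on every count of sharing. All libraries but 1 held between 115569 and 211352 reads with a CDR3 and between 12845 and 41477 distinct CDR3s, whereas LFPRLR SMO replicate 6 held 567 reads and 458 distinct CDR3s. Between 88.3% and 92.8% of a library's distinct translations gave a CDR3. No molecular identifiers were described, so reads are not independent molecules, and intervals cover counting error only. Within-group pairs of libraries overlapped unequally: when the smaller of the 2 libraries' read shares was summed over all CDR3s, control SMO replicates 5 and 7 had 65.2% of reads in common, control SMO replicates 4 and 8 had 55.1%, and LFPRLR SMO replicates 4 and 5 had 45.4%. These 3 pairs are called linked pairs here. The next pairs were LFPRLR SMO replicates 3 and 4 at 30.4% and control SMO replicates 4 and 9 at 22.3%, and the median over all unlinked pairs was 4.08%. The labels give all 12 as separate samples, and whether linked libraries share cells, RNA or sequencing product was not tested. The libraries also fell into 2 library sets of 3 mice per group by the Cμ end, where 33.2% to 40.1% of sequences in 1 set and at most 2.27% in the other carried a second, synonymous version. Each linked pair holds 1 library of either set.

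The number of CDR3s fell steeply with the number of libraries. CDR3s found in 2 libraries numbered 23608, those in 6 libraries 776 and those in 10 libraries 139, and 18 were found in all 12. Of the CDR3s in exactly 8 libraries, 100 of 256 were public, and of those in 9 libraries, 134 of 182 were. Every CDR3 in 10 or more libraries is public by arithmetic. At the edge of the rule, the 296 members with 4 libraries in one group and 4 or more in the other had a median length of 9 residues and a median of 93 reads. The 504 CDR3s just outside, with 3 libraries in one group and 4 or more in the other, had a median of 10 residues and 61.5 reads.

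**Figure D1:**
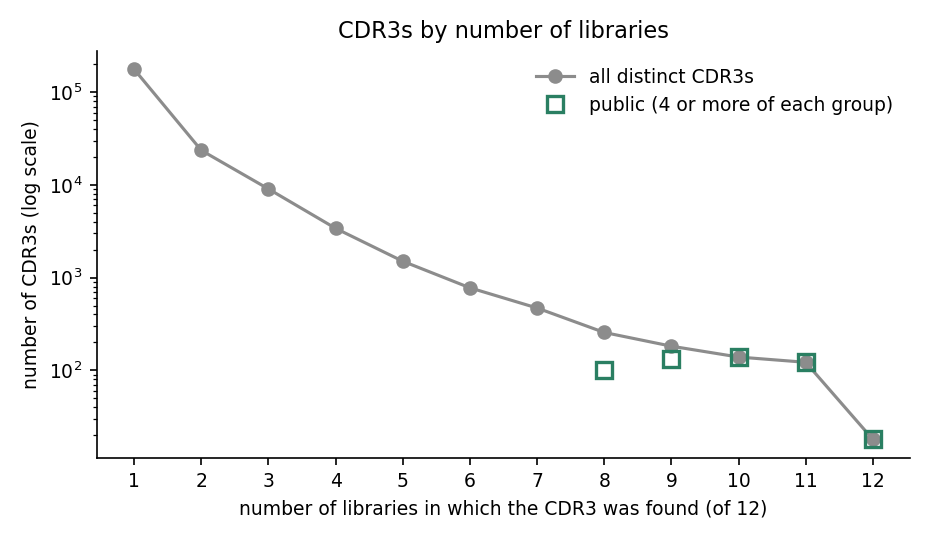
Number of distinct CDR3s (vertical axis, log scale) against the number of libraries in which each was found (horizontal axis, of 12); grey circles are all CDR3s and green squares the public CDR3s. Counts drop from 176819 in 1 library to 18 in all 12, and public CDR3s start at 8 libraries, where they are 100 of 256.

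The 10 public CDR3s found in most libraries, with ties ordered by the number of distinct translations, are shown first because they span what recurred. All of them occurred in all 12 libraries. The J segment of each was read from the residues that follow the conserved tryptophan and is given with it. The first 9 are:
AIWLLLV (JH1)
ARGGFAY (JH3)
KNYRYDVAY (JH3)
ARSGPPFWYFDV (JH1)
TTGFAY (JH3)
ARGAY (JH3)
ATGAWFAY (JH3)
AIDLLLRWNAMDY (JH4)
AREDY (JH2)
The tenth is 17 residues long, carries JH4 and is one of 3 public CDR3s of that length, the longest. ATDY, with JH2, is one of 4 public CDR3s of 4 residues, the shortest, and was also found in all 12 libraries. Ranked by mean read share over the 12 libraries instead, the first 5 were KNYRYDVAY, ARRRKTSRATWVAY, AIWLLLV, ASDYGDTWFAY and ARDWGLRHYFDY.

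At the nucleotide level these CDR3s were of different kinds. The 8 versions of AIWLLLV with the highest library counts are written here 5′ to 3′, from the codon after cysteine to the codon before tryptophan, with capitals at bases that differ from the first version:
version 1: gctatatggttactacttgtc
version 2: gctatatggttactGcttgtc
version 3: gctatatggttGctacttgtc
version 4: gctatatggttactTcttgtc
version 5: gctatatggttaTtacttgtc
version 6: gctatatggttactacttgtA
version 7: gctatatggttactactCgtc
version 8: gcCatatggttactacttgtc
Version 1 had the most reads in all 12 libraries and held 92.8% of the reads of AIWLLLV. Version 2 followed with 959 reads in 11 libraries, and version 3 with 260 reads in 5. Versions 4 to 8 were found in 4 or fewer libraries, all of control SMO, with between 3 and 85 reads. Each of versions 2 to 8 differs from version 1 at 1 base.

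ARGGFAY is set beside it as a contrast chosen after its values were seen:
version 1: gcaagaggggggtttgcttac
version 2: gcaagGggggggtttgcttac
version 3: gcaagagggggTtttgcttac
version 4: gcaagaggAgggtttgcttac
version 5: gcaagGggAgggtttgcttac
Its first version held 55.7% of its reads and led in 10 of 12 libraries. Versions 2 to 5 were each found in 10 or 11 libraries. In all, 34 versions of ARGGFAY were recorded, the most of any public CDR3, against 15 of AIWLLLV and 13 of KNYRYDVAY.

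Public CDR3s were short. Over the 12 libraries, the mean length of a library's public CDR3s was 8.79 ± 0.322 residues (SD, n = 12), and that of its one-library CDR3s was 11.9 ± 0.248 residues (SD, n = 12). The difference was -3.10 ± 0.519 residues and had the same sign in 12 of 12 libraries, from -3.77 to -1.64 (exact two-sided sign-flip test, p = 0.000488, adjusted p = 0.000895 over 11 measures). LFPRLR SMO replicate 6 gave the smallest difference, with 57 one-library CDR3s. The 12 libraries include the linked pairs. With each linked pair averaged into 1 value, the difference was -3.09 residues (exact sign-flip test, adjusted p = 0.00716). Much the same public CDR3s enter from each library, so the 12 differences share their public side, and the p-value speaks mainly for the one-library side. Of the public CDR3s, 174 (33.9%) had 7 or fewer residues, against 4.58% of one-library CDR3s. Loops of 13 or more residues were 39 of 513 (7.60%), against 41.5%. Public status was commonest at 5 residues, where 2.84% of all distinct CDR3s were public, and was 0.0557% at 14 residues.

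**Figure D2:**
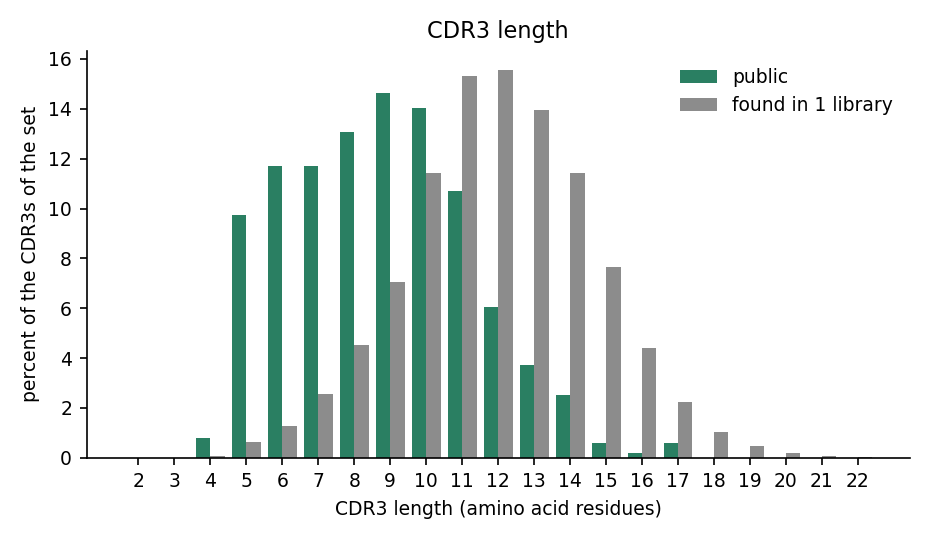
Percent of CDR3s (vertical axis) by length in residues (horizontal axis, drawn up to 22 residues) among the 513 public CDR3s (green) and the 176819 CDR3s found in 1 library (grey). Public CDR3s peak at 9 residues (75 CDR3s) and one-library CDR3s at 12 residues (15.5%).

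The J segments, which supply the end of the loop and differ in how many residues they add before the tryptophan, were used unequally. JH2, one of the shorter ends, was carried by 38.8% ± 1.34 of a library's public CDR3s and 30.2% ± 1.79 of its one-library CDR3s (SD, n = 12), higher among public CDR3s in 12 of 12 libraries (difference 8.57 percentage points, exact sign-flip test, adjusted p = 0.000895). JH3 was lower in 12 of 12 libraries, at 22.04% ± 1.41 against 28.6% ± 1.67 (difference -6.60, adjusted p = 0.000895). JH1 was also lower in 12 of 12, at 7.38% ± 1.26 against 9.52% ± 0.977 (difference -2.14, adjusted p = 0.000895). JH4, one of the longer ends, was at 31.7% ± 1.99 against 31.4% ± 3.05, with 6 libraries on either side of 0 (difference 0.349, adjusted p = 0.561). When each CDR3 was weighted by its reads, the differences were 3.33 points for JH1, 0.0507 for JH2 and 6.13 for JH3 (adjusted p = 0.319, 0.982 and 0.120, exact sign-flip test) and -9.33 for JH4 (adjusted p = 0.00806).

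Germline D segments were first read by a list of short stretches of residues: YGSS for Ighd1-1; YDYD, YDGY, YYSN, YSNY, YYGN, YGNY, YYRYD or YYGYD for the Ighd2 family; NWD for Ighd4-1; and SSGY for Ighd3-2. A stretch of this list was present in 44 of 513 public CDR3s (8.58%) and in 15.1% of one-library CDR3s. By library the shares were 8.52% ± 0.790 and 14.5% ± 1.92 (SD, n = 12), and public CDR3s were lower in 11 of 12 libraries (difference -6.003 percentage points, exact sign-flip test, adjusted p = 0.00119), LFPRLR SMO replicate 6 being the exception at 1.23. The Ighd2 family accounted for 37 of the 44, and YSNY alone for 23. Ighd4-1, the shortest D segment, was the motif in 6 public CDR3s, and its share of 1.13% ± 0.230 stood beside 1.01% ± 0.258 (difference 0.122, adjusted p = 0.146). Without LFPRLR SMO replicate 6 the Ighd4-1 difference was 0.179 (exact sign-flip test, adjusted p = 0.0140). Held to CDR3s of 9 to 11 residues, it was -0.302 without that library (exact sign-flip test, p = 0.00781, not adjusted). With all 12 libraries it was 0.0853 at these lengths (exact sign-flip test, adjusted p = 0.997), and 10 of the 12 were lower. SSGY occurred in 1 public CDR3. YGSS occurred in 0 of 513, which allows a share of up to 0.585% for these letters and says nothing of the D segment, since they were rare among one-library CDR3s too (0.140%).

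The list was incomplete. YDGS or DGSY, which it lacks, stood in 40 public CDR3s (7.80%) and in 10.1% of one-library CDR3s, and the D segment behind them was not assigned, as no germline sequences were at hand. ASYYDGSYAMDY, NYYDGSYYFDY and ARYYYDGSYFDY are examples, named after their values were seen. These 40 had a median length of 12 residues and between 13 and 7953 reads, 26 of them carried JH2, and 31 had 2 or more leading nucleotide versions. With both stretches added to the list, an alternative chosen after seeing the data, a D stretch was present in 84 public CDR3s (16.4%) and 25.1% of one-library CDR3s. By library the shares were 15.9% ± 1.06 and 24.7% ± 1.55 (SD, n = 12), lower among public CDR3s in 12 of 12 libraries (difference -8.77 percentage points, exact sign-flip test, adjusted p = 0.000767).

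Length was tied to both readings. When both sets were held to 9 to 11 residues (202 public and 59831 one-library CDR3s), the share with a listed D motif turned round: it was 12.7% in public and 7.91% in one-library CDR3s, higher among public CDR3s in 12 of 12 libraries (difference 4.79 percentage points, exact sign-flip test, adjusted p = 0.00107). With YDGS and DGSY added it was 18.4% against 11.3% (difference 7.13, adjusted p = 0.00107, 12 of 12 libraries). The Ighd2 family carried this, at 11.1% against 5.93% (adjusted p = 0.00107). JH4 became the segment with the largest gain, at 44.4% against 25.4% (difference 19.0, higher in 11 of 12 libraries, adjusted p = 0.00153), and was higher by 19.4 to 24.2 points in each library other than LFPRLR SMO replicate 6, which had 23 public and 19 one-library CDR3s of these lengths and a difference of -10.8. The JH3 difference was -18.2 points (adjusted p = 0.00107). Pooled shares by length class are given without a test. At up to 7 residues, listed D motifs were at 2.30% of public and 2.36% of one-library CDR3s, and JH4 at 13.2% and 13.6%. JH4 was at 38.8% and 20.4% at 8 to 10 residues, and at 40.7% and 28.3% at 11 or 12. Listed motifs were at 7.48% and 6.29%, and at 20.9% and 12.7%, in these 2 classes. At 13 or more residues, JH4 was at 56.4% and 43.0%. Listed motifs were at 15.4% and 23.2% there, but at 56.4% and 41.9% with YDGS and DGSY added. Within 9 to 11 residues public CDR3s stayed shorter, by a difference of -0.379 residues (adjusted p = 0.00107). JH2, higher over all lengths, differed by -1.96 points within them (adjusted p = 0.0668), or by -2.74 points without LFPRLR SMO replicate 6 (exact p = 0.00195, not adjusted).

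**Figure D3:**
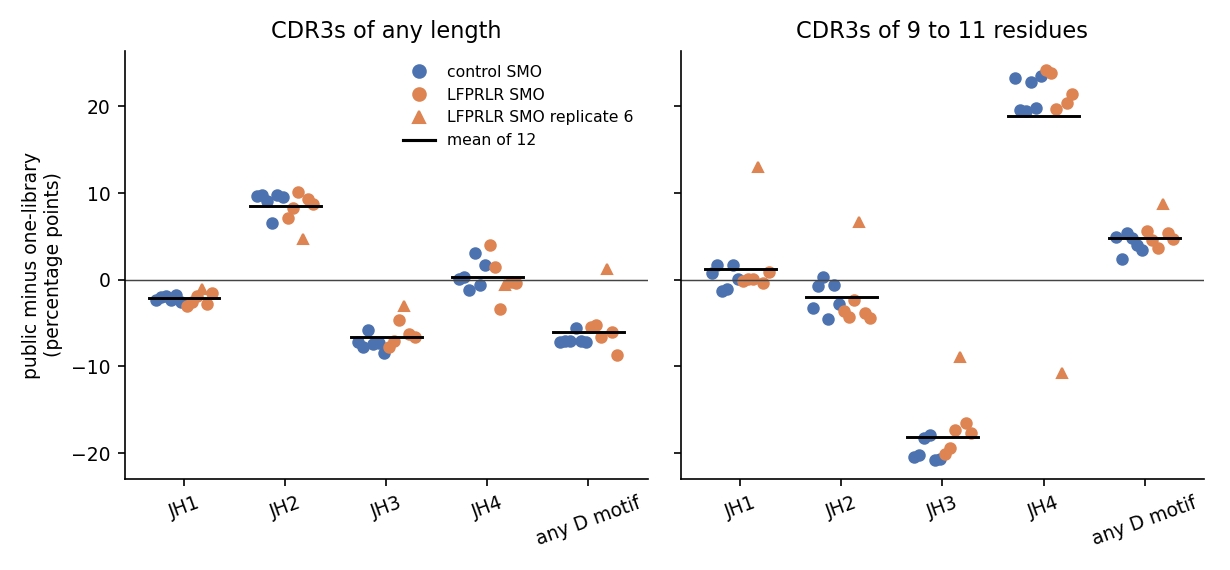
Difference in the share of CDR3s (public minus one-library, percentage points, vertical axis) for each J segment and for any listed germline D motif; each point is a library (blue control SMO, orange LFPRLR SMO, triangle LFPRLR SMO replicate 6) and the black line the mean of 12. Over all lengths (left) JH2 is higher by 8.57 and D motifs at -6.003 on average; within 9 to 11 residues (right) JH4 is higher by 19.0 and listed D motifs by 4.79.

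Junctional residues were few in public CDR3s. After a leading alanine-arginine from V, the longest matching J end and the longest stretch of at least 2 residues of a listed germline D were set aside, 2.19 ± 0.442 residues remained per public CDR3 and 4.82 ± 0.0685 per one-library CDR3 (SD over libraries, n = 12). The difference was -2.62 ± 0.458 residues, lower in 12 of 12 libraries (exact sign-flip test, adjusted p = 0.000895). It was -2.15 within 9 to 11 residues (adjusted p = 0.00107), again lower in 12 of 12 libraries. In 68 public CDR3s (13.3%) no residue remained, against 0.0978% of one-library CDR3s, and in 216 (42.1%) at most 1 remained, against 1.87%. With stretches of YYYDGSY set aside too, the difference was -2.53 residues over all lengths. Alanine-arginine opened 438 of 513 public CDR3s (85.4%) and 71.8% of one-library CDR3s.

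Members resembled each other. Another public CDR3 of the same length with a single substitution existed for 398 of 513 (77.6%). Among those of up to 7 residues this held for 92.5%, and among those of 13 or more for 43.6%. Chained in this way, the largest families were 59 members of 6 residues, which include TTGFAY, 51 of 7 residues, which include ARGGFAY, and 47 of 5 residues, which include ARGAY. These are counts within a list chosen for sharing and were not tested.

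More than 1 nucleotide version was recorded for nearly all public CDR3s. At least 2 versions were recorded for 497 of 513 (96.9%), with a median of 6 versions, and at least 2 versions each found in 2 or more libraries for 446 (86.9%). Many versions had few reads: KNYRYDVAY had 99.8% of its reads in its first version and 12 reads in its second. The part of PCR or sequencing error in such versions was not tested. The second version held at least 10% of the reads in 353 public CDR3s (68.8%). The version with the most reads in a library, its leading version, was compared between libraries. In 436 public CDR3s (85.0%) different libraries were led by different versions, and 258 (50.3%) had 4 or more leading versions. The remaining 77 (15.01%) had the same leading version in every library that held them.

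Members with 1 leading version differed in other ways from those with several. Their median length was 11 residues (quartiles 9 and 13), against 8 residues (quartiles 6 and 10) for members with 4 or more. They had a median of 1077 reads and 118 translations, against 105.5 reads and 41 translations. A median of 92.6% of their read share, summed over the 11 libraries other than LFPRLR SMO replicate 6, lay in 1 library or linked pair, against 41.0% for members with 4 or more leading versions. JH4 was carried by 22.1% of the former and 38.4% of the latter, and a listed D motif by 16.9% and 3.49%. These values describe the list and were not tested.

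**Figure D4:**
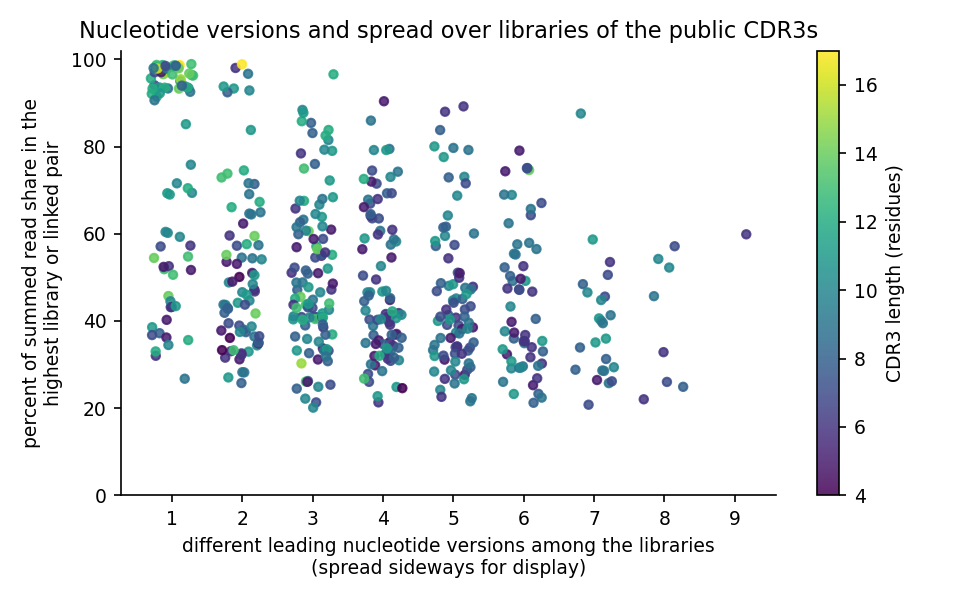
Each point is 1 of the 513 public CDR3s: the number of different leading nucleotide versions among its libraries (horizontal axis, spread sideways for display) against the percent of its summed read share that lay in its highest library or linked pair (vertical axis), coloured by length in residues. A dense group with 1 leading version lies above 90%, and members with 4 or more leading versions have a median of 41.0%.

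Reads of public CDR3s were held by few of them. In 52 public CDR3s (10.1%), over 90% of the summed read share lay in 1 library or linked pair, and in 51 of the 52 the highest library belonged to a linked pair, against 270 of the other 461 (58.6%). Linked pairs were picked by the abundant CDR3s that their libraries have in common, and the measure sums both libraries of a pair, so these counts largely restate that choice. These 52 had a median length of 12 residues, against 8 for the other 461, and 43 of them had 1 leading version. They held 68.2% of all 308489 reads in public CDR3s.

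KNYRYDVAY is the clearest case. In control SMO replicates 3, 4, 5, 7, 8 and 9 its reads numbered 2, 1033, 10874, 9364, 121 and 85. In LFPRLR SMO replicates 3 to 8 they numbered 23, 10, 8, 6, 39 and 7. The linked control SMO replicates 5 and 7 held most of its reads, the 6 reads of LFPRLR SMO replicate 6 made up 1.06% of that small library, and the same version led in all 12 libraries. ARRRKTSRATWVAY was the counterpart in the other group, with 5387 and 13954 reads in the linked LFPRLR SMO replicates 4 and 5. Elsewhere it had between 0 reads, in control SMO replicate 3, and 488 reads, in LFPRLR SMO replicate 7.

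ARSGPPFWYFDV followed the third linked pair, with 3548 reads in control SMO replicate 4 and 7254 in control SMO replicate 8. The remaining libraries had between 5 and 90 reads of it. With 9 reads each, ARSGPPFWYFDV and AIWLLLV were among the most-read public CDR3s of LFPRLR SMO replicate 6, although their highest libraries were control SMO libraries. AIWLLLV had 94.1% of its summed share in control SMO replicates 5 and 7, as ASDYGDTWFAY had 95.05%, and ARDWGLRHYFDY had 95.7% in LFPRLR SMO replicates 4 and 5. How these CDR3s came to be read in libraries of both groups was not tested.

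Members with fewer unmatched residues had less of their read share in 1 library or linked pair: the median was 41.6% for the 216 with 0 or 1 and 95.6% for the 36 with 5 or more. Shorter members also had less there. The median was 42.6% for the 174 members of up to 7 residues, 45.2% at 8 to 10, 57.4% at 11 or 12 and 72.9% at 13 or more. Even so, 6 of the 174 short members, KRYDY and ATVWFDY among them (97.1% each), had over 90% there. The following named members are given in full. ARGGFAY, with 2 residues left unmatched, had 299, 940, 365, 399, 1569 and 369 reads in the control SMO libraries, in the order given above. In the LFPRLR SMO libraries it had 266, 357, 555, 1, 323 and 117 reads. The ranges of the groups overlapped, and the single read came from the smallest library. The 940 and 1569 reads of control SMO replicates 4 and 8 lay above every LFPRLR SMO count. ARGAY had between 24 and 170 reads in control SMO libraries and between 62 and 318 in LFPRLR SMO libraries other than replicate 6, where it had 2. AREDY, with 1 unmatched residue, had 11, 8, 9, 13, 21 and 17 reads in the control SMO libraries. Its reads in the LFPRLR SMO libraries were 49, 94, 229, 1, 18 and 201. As shares of reads the groups did not overlap (0.00611% to 0.00994% against 0.0133% to 0.176%), the 1 read of replicate 6 giving the highest share. AREDY was not called (log2 fold change 3.54 ± 1.79, SE; edgeR adjusted p = 0.140). Among all 1963 CDR3s tested, 225 had an unadjusted p under 0.05 by an exact Mann–Whitney test of the read share, and 0 were called. How many others separated without overlap was not counted.

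Translations and reads per CDR3 were in part fixed by the rule, since a CDR3 with more of either is found in more libraries, and are given without a test. A translation is 1 distinct amino acid sequence of the whole read, so CDR3s joined to different VH sequences or carrying different errors count separately. Public CDR3s had a median of 45 translations (range 9 to 1002) and 127 reads (range 12 to 21572) over the 12 libraries. One-library CDR3s had a median of 1 translation and 1 read, 65.5% of them were read once, and 2.42% had 10 or more reads. Within a library, between 11.5% and 30.1% of the public CDR3s present were read once, and 65.0% in LFPRLR SMO replicate 6.

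Whether treatment changed the share of the repertoire held by recurrent CDR3s was compared between the groups. The median share of reads in public CDR3s was 20.9% under control SMO (range 3.99% to 44.0%) and 15.6% under LFPRLR SMO (range 6.24% to 37.2%), or 7.10% without LFPRLR SMO replicate 6. Presence in each group chose these CDR3s, so the test was run on the 717 CDR3s found in 8 or more libraries of any group, which contain all public CDR3s. Medians were 24.4% (range 4.77% to 49.3%) for control SMO and 19.3% (range 6.65% to 38.3%) for LFPRLR SMO, and the ranges overlap (difference -5.12 percentage points, exact two-sided Mann–Whitney U test, p = 0.937). Within the library sets the difference in medians was -9.63 and 2.65 percentage points, in designs of 3 against 3 that cannot go below p = 0.10 (exact p = 1 in both).

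**Figure D5:**
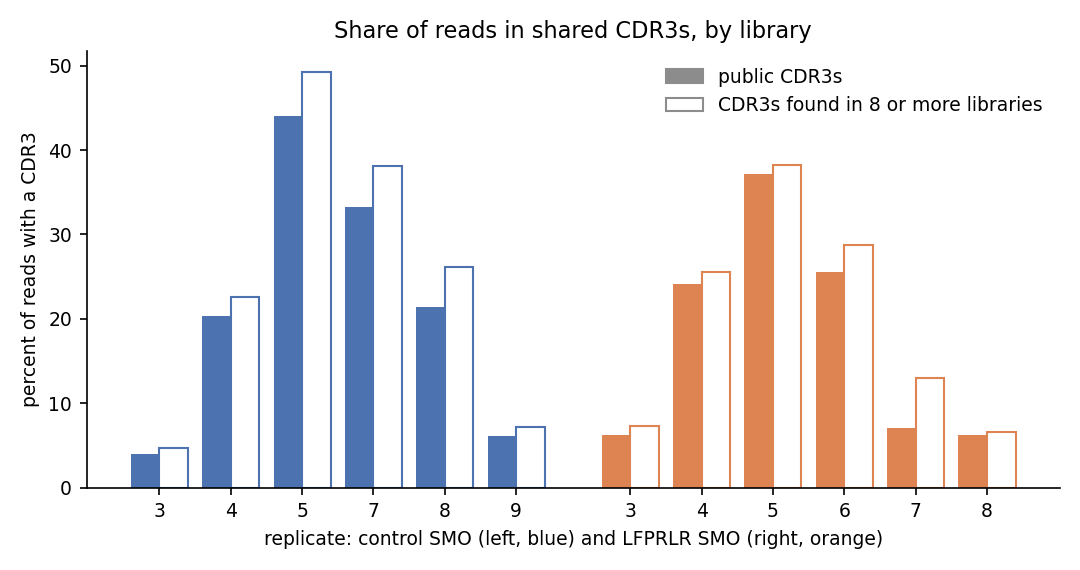
Percent of a library's reads with a CDR3 (vertical axis) that fell in public CDR3s (filled bars) and in CDR3s found in 8 or more libraries (open bars), by replicate number (horizontal axis), for control SMO (blue) and LFPRLR SMO (orange). The highest filled bars belong to the linked control SMO replicates 5 and 7 and LFPRLR SMO replicate 5, and the group ranges of public CDR3s, 3.99% to 44.0% and 6.24% to 37.2%, overlap.

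Libraries of linked pairs had higher shares than the unlinked libraries of their group, other than LFPRLR SMO replicate 6. Control SMO replicates 5 and 7 had 44.0% (95% Wilson interval 43.8% to 44.3%) and 33.3% of reads in public CDR3s. Control SMO replicates 4 and 8 had 20.3% and 21.4%, and LFPRLR SMO replicates 4 and 5 had 24.2% and 37.2%. A CDR3 held by both libraries of a pair comes nearer to the 4 libraries that the rule requires. How much of the pattern this makes up was not tested. Control SMO replicates 3 and 9 and LFPRLR SMO replicates 3, 7 and 8 had between 3.99% and 7.10%. LFPRLR SMO replicate 6 had 25.6% (95% Wilson interval 22.2% to 29.3%), from 145 reads. As a share of distinct CDR3s, public CDR3s made up 0.945% to 2.81% of each library, other than 17.5% of LFPRLR SMO replicate 6, which held 80 of the 513. The other libraries held between 357 and 486 of them. When CDR3s had to reach 1% of their highest library's share to count as present, the set in 8 or more libraries shrank to 612 CDR3s, with medians of 6.21% and 6.77% of reads (exact Mann–Whitney U test, p = 0.310). This alternative was chosen after seeing the data.

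Read counts of single CDR3s were compared with edgeR's quasi-likelihood test over the 1963 CDR3s found in 6 or more libraries. Of all CDR3s tested, 17.6% (345) had an adjusted p under 0.05, and 35% (688) an unadjusted p under 0.05. All 513 public CDR3s passed the filter, and 27 of them (5.26%) were called, 18 higher and 9 lower in LFPRLR SMO libraries. The rule required 4 libraries in each group and so left out CDR3s confined to 1 group, which is why nothing can be read from 5.26% against 17.6%. The median log2 fold change was -0.05 over public CDR3s and -0.30 over all CDR3s tested.

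None of the 27 calls remained when the linked pairs were summed into 1 library each (0 of 1963 CDR3s called, 528 at unadjusted p under 0.05), nor without control SMO replicate 4, control SMO replicate 7 or LFPRLR SMO replicate 4 (0 in each case). Calls among public CDR3s numbered 27, 1, 3 and 16 without control SMO replicates 3, 5, 8 and 9. They numbered 14, 10, 49, 13 and 23 without LFPRLR SMO replicates 3, 5, 6, 7 and 8. With TMM factors 30 public CDR3s were called, and with library set as a factor 24. An exact Mann–Whitney test of each read share called 0 of 1963, with 225 at unadjusted p under 0.05. DESeq2 called 306, of which 58 were public, or 442, of which 79 were public, with its poscounts size factors. The highest library of 24 of the 27 belonged to a linked pair. Over all public CDR3s this held for 51 of the 52 with over 90% of their read share in 1 library or linked pair, and for 270 of the other 461. A median of 93.6% of the summed read share of the 27 lay in 1 library or linked pair, against 45.1% for public CDR3s not called. Linked pairs were picked by the abundant CDR3s they have in common, so these values in part restate that choice.

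The 5 called CDR3s with the smallest p in each direction are named. KRYDY, of 5 residues, had 0, 3, 2, 4, 0 and 3 reads in the control SMO libraries. Its reads under LFPRLR SMO were 2, 462, 1857, 2, 39 and 17. Its reads lay mostly in linked LFPRLR SMO replicates 4 and 5 (log2 fold change 7.87 ± 2.51, SE; edgeR adjusted p = 0.0276). The other 4 higher ones were ARGGLRRAWFAY, ARGGAYYVNLFAF, ARKKLRSYWYFDV and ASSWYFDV, with log2 fold changes from 5.95 to 7.57 and edgeR adjusted p from 0.0276 to 0.0290. Each was highest in LFPRLR SMO replicate 4 or 5.

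Among the lower ones, AKSSYYNYFDY had 5, 1135, 5, 2, 2741 and 27 reads in the control SMO libraries. Its reads under LFPRLR SMO were 3, 1, 2, 0, 6 and 2. The linked control SMO replicates 4 and 8 carried it (log2 fold change -7.46 ± 2.61, SE; edgeR adjusted p = 0.0367). ARWGYYSYAFAY, ARSLYDDYEDAMDY, AIIYDGYYVDY and ARWGYNTYEGFDY were the other 4, with log2 fold changes from -7.64 to -6.67 and edgeR adjusted p from 0.0298 to 0.0387. Each was highest in control SMO replicate 5 or 8. ARGGFAY was not called (log2 fold change -0.81 ± 2.01, edgeR adjusted p = 0.805), nor was AIWLLLV (-3.23 ± 2.60, adjusted p = 0.371).

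The features that set public CDR3s apart from one-library CDR3s were also compared between the groups. The length difference was -3.31 residues for control SMO and -2.89 for LFPRLR SMO, or -3.14 without LFPRLR SMO replicate 6 (exact permutation test of the group labels, p = 0.136 with it and p = 0.281 without it). The JH2 difference was 9.07 and 8.07 percentage points (exact p = 0.320), and the listed D motif difference was -6.85 and -5.16 (exact p = 0.264). Over the 11 measures the smallest adjusted p was 0.516.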

How the data were processed

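Libraries from splenic B cells came from 12 mice, 6 per labelled treatment. The deposited tables, 1 of translations and 1 of nucleotide sequences per library, hold whole-number read counts per unique sequence, without normalization. Amplicons were sequenced as paired reads of 150 bases, and per the methods unique sequences were counted and analysed with IMGT HighV-QUEST. How reads were merged is not given in the sources used here. The members and lists were chosen with earlier results of these data known.

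In translations without a stop, the CDR3 was the stretch between the cysteine of [YF][YF]C, at residues 16 to 30, and the tryptophan of the last WG[QAT]GT. J was read from the residues after that tryptophan. Germline D and J residues were written from general knowledge, and no table of germline segments was used. Nucleotide versions came from the nucleotide tables, translated here, leaving out versions with undetermined bases, and their read sums differ slightly from those of the translation tables.

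For each library, the mean over its public CDR3s minus the mean over CDR3s in no other library was tested by an exact sign-flip test (4096 arrangements, smallest p 0.000488), with Benjamini-Hochberg adjustment over 11 measures. Groups were compared by the exact Mann–Whitney U test (smallest p 0.00216) and, for reads per CDR3, by edgeR 4.0.16 (glmQLFit, glmQLFTest; offset, total reads with a CDR3; threshold 0.05) in R 4.3.3. DESeq2 1.42.0, TMM factors, other thresholds, weighting by reads, linked pairs averaged or summed, library sets, a replicate block and each library left out were alternatives, and a minimum of 1% of the highest library's share and the D stretches YDGS and DGSY were added after seeing the data (LFPRLR SMO replicate 6 is never taken as the highest library). Python 3.11.15, NumPy 2.4.6 and SciPy 1.17.1 were used, and scripts were tested on data with known answers. CDR3s named were the 10 public ones in most libraries (ties by translations), the 5 with the highest mean read share, up to 5 called per direction, the shortest and the longest, and 8 nucleotide versions of the first. CDR3s of 15 or more residues are not printed. With separate mice per sample as labelled but linked libraries among them, p-values measure the spread between these samples. In the sign-flip tests much the same public CDR3s enter from each library, so those p-values speak mainly for the one-library side.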

Additional observations from a re-analysis of the deposited data

Results flagged for a closer look

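A library was set apart when its gap to the nearest of the other 5 libraries of its group was large against the group's whole range. Over the measures checked in both groups, chance alone sets apart about 1 group in 20. LFPRLR SMO replicate 6, the library with 567 reads, was set apart on 6 measures. It held 80 public CDR3s, with 395 in the next library. Its public CDR3s were shorter than its one-library CDR3s by a difference of -1.64 residues, with the nearest library at -2.90. Its differences (public minus one-library) were 1.23 percentage points for any D motif, 3.49 for the Ighd2 family and -1.75 for Ighd1-1, and -1.23 unmatched residues.

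Control SMO replicate 7 was set apart on JH2, at 6.53 percentage points with the nearest library at 9.14, and on any D motif, at -5.59 with the nearest at -7.04. Control SMO replicate 8 was set apart on the Ighd1-1 motif, at -0.795 percentage points with the nearest at -0.140.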

How the results depend on the processing

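In all, 311 alternative values were computed for 15 results. Lower length and fewer unmatched residues kept their direction in every alternative run. With linked pairs averaged, p-values were larger than over 12 libraries. Adjusted p was 0.00716 for length, JH1, JH2, JH3 and unmatched residues, and 0.00955 for any D motif (exact sign-flip test). Weighting each CDR3 by its reads gave 3.33 percentage points for JH1, 0.0507 for JH2, 6.13 for JH3, -9.33 for JH4 and -0.441 for Ighd4-1. Restriction to 9 to 11 residues gave 1.29 for JH1, -1.96 for JH2, 19.0 for JH4, 4.79 for any D motif (7.13 with YDGS and DGSY added) and 5.18 for the Ighd2 family. Under the 1% minimum, chosen after seeing the data, JH4 was 2.26 and Ighd4-1 -0.0285. The cause of these shifts was not tested. Over the 6 libraries of a library set, an exact sign-flip p cannot go below 0.03125 before adjustment. Within library set 2, adjusted p was 0.0573 or more: length was -3.09, JH1 -1.73, JH2 8.69, JH3 -5.76, JH4 -1.02, any D motif -5.90 and unmatched residues -2.49. Within library set 1, adjusted p was 0.0688 for JH4 (1.72) and 0.0382 for the other measures just named, with length at -3.11 and JH2 at 8.44.

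The number of public CDR3s was 1323, 217 and 18 with 3, 5 and 6 libraries required per group, 247 with at least 2 reads in a library, 990 with linked pairs merged and 3 libraries per group required, and 283 to 494 with 1 library left out. The read share difference was 3.98 with 6 or more libraries required, 0.276 as a share of distinct CDR3s, 0.558 under the 1% minimum, and -11.4 to 1.12 with 1 library left out (1.12 without LFPRLR SMO replicate 3, 7 or 8). CDR3s called by edgeR numbered 345, against 0 by the exact Mann–Whitney test, 7074 among CDR3s in 3 or more libraries, 59 among those in 8 or more, 0 with linked pairs summed and 0 to 382 with 1 library left out.

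By the criterion of a correlation over 0.1 in every pair, replicate numbers do not pair the mice: deviations of same-numbered libraries over CDR3s correlated at 0.0616, -0.00172, 0.0966, 0.0583 and 0.0492. For the read share of recurrent CDR3s alone, same-numbered deviations correlated at 0.671 over the 5 pairs, and the block gave a difference of -11.02 (exact p = 0.250) against -5.12. With the replicate block, 0 CDR3s were called. Over the 5 pairs, which cannot go below an exact p of 0.0625, the block gave -3.23 for length, -2.20 for JH1, 8.85 for JH2, -6.78 for JH3, -6.61 for any D motif and -2.74 for unmatched residues. LFPRLR SMO replicate 6, with 567 reads, limits what can be seen as present there.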
